A study of Nothobranchius furzeri with 20 samples.

Results

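The most abundant transcripts of turquoise killifish skin were taken as the gene IDs with a mean of at least 2000 CPM (counts per 1000000 of a library's total) over 20 RNA-seq libraries and at least 500 CPM in each of them. The rule found 46 of 26739 gene IDs, or 0.172%, and these held 15.8% to 41.2% of a library's counts. It uses only an ID's mean and its lowest library, so the levels that chose the members are described and not tested. The fish were males of GRZ, an inbred, short-lived strain of Nothobranchius furzeri. Skin was sampled from fish aged 5, 7, 10 and 14 weeks, with 5 libraries at each age, and the series asks how skin expression differs between age groups. All groups share strain, sex and tissue, and no other treatment is named. Neither the body site nor whether each library is a different fish is given, so p-values measure only how these libraries vary, which may be partly technical.

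As background, skin is built of an outer sheet of keratin-rich epithelial cells, often with mucus cells, over a collagen-rich dermis that in fish carries scales and pigment cells. In bulk RNA from such tissue, messages for collagens, keratins, actins, ribosomal proteins and translation factors are commonly among the most abundant. Genes carry an ID and no symbol in the deposited table, and a search of the species' RefSeq gene list matched 0 of them. None of the 46 can therefore be given a name or a role here, and the labelled tissue could not be checked against marker genes. The IDs are described by level, length, co-variation and course over age. In bulk tissue, fewer cells of a type and less RNA per cell cannot be told apart.

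Library totals ran from 21581757 to 35137022 counts. The first principal component of log2 CPM, scaled with edgeR's TMM factors, held 42.8% of the variance. Along it, 4 libraries lay farthest to one side: 7 weeks replicate 3, 10 weeks replicate 4 and 14 weeks replicates 3 and 4. At 5 weeks, replicates 4 and 5 had scores of −5.35 and 15.3 on this component, against −60.6 to −55.4 for the other 3 replicates. Summed shares and the main places by age are also given without these 6 libraries, and each ID's values are given for all 20 libraries. The 6 did not follow a common cut-off on this component. Replicate 5 of 7 weeks, at 31.8, and replicate 5 of 14 weeks, at 45.3, were kept although they lay farther out than replicates 4 and 5 of 5 weeks. Replicate 4 of 5 weeks also had the highest summed share of all libraries, 41.2%, whereas the 4 farthest out had the lowest.

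The summed share of the 46 IDs was 33.6, 33.5, 37.5, 41.2 and 33.1% at 5 weeks, 34.8, 36.9, 27.2, 33.1 and 33.3% at 7 weeks, 41.0, 36.2, 28.0, 20.5 and 34.1% at 10 weeks and 34.2, 34.7, 21.6, 15.8 and 28.3% at 14 weeks, in replicate order. The means were 35.8% ± 3.52, 33.1% ± 3.64, 31.9% ± 7.94 and 26.9% ± 8.18 (SD, n = 5 each). The ranges of all 4 ages overlapped, and a sum over members chosen by level was given no test. The 4 lowest shares, 15.8% to 27.2%, were those of the 4 libraries farthest out on the first component. The other 16 libraries held 28.0% to 41.2%. Without these 4, an alternative chosen after seeing the data, the means were 34.5% ± 1.75 at 7 weeks (n = 4), 34.8% ± 5.4 at 10 weeks (n = 4) and 32.4% ± 3.53 at 14 weeks (n = 3). Without replicates 4 and 5 the mean at 5 weeks was 34.9% ± 2.3 (n = 3).

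In the same 4 libraries the counts were spread over more IDs. The highest IDs that together hold 50% of the counts numbered 408 to 704 there and 89 to 276 in the other 16. They also had counts for slightly more IDs, 21664 to 22120 against 20842 to 21540. Their totals, 21616172 to 28927025 counts, lay within the range of all libraries.

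**Figure D1:**
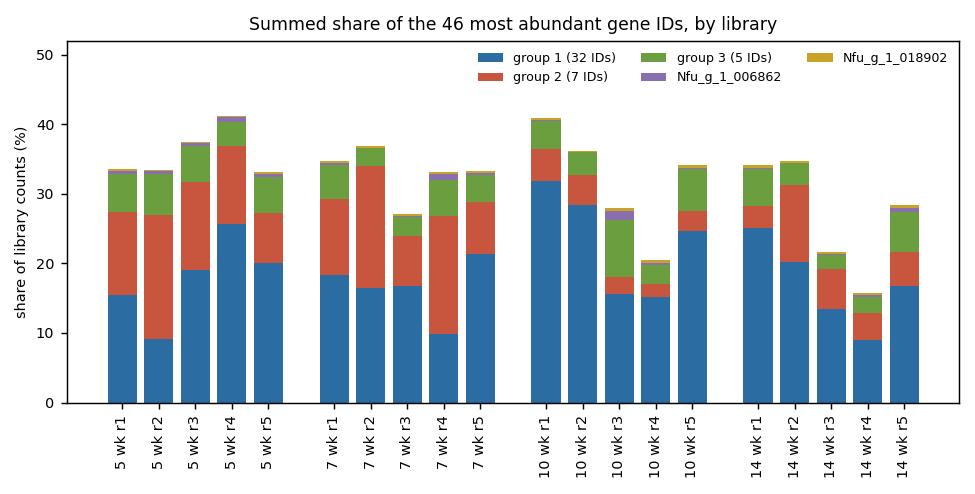
Stacked bars of the share of each library's counts (%) taken by the 46 IDs, coloured by co-variation group, for the 20 libraries in order of age and replicate (wk, weeks; r, replicate). The sum is lowest at 15.8% in 14 weeks replicate 4 and highest at 41.2% in 5 weeks replicate 4, and group 2 takes less at 10 weeks than at 5 or 7 weeks.

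Counts were concentrated at the top of the ranking. By mean CPM the first 5 IDs held 41.4% and the first 10 held 61.3% of the members' counts. A mean of at least 10000 CPM was reached by 9 IDs, and 28 had means under 4000 CPM. The first 10 together took 23.4% ± 2.42, 21.8% ± 3.5, 17.8% ± 5.15 and 15.4% ± 4.9 of all counts at 5, 7, 10 and 14 weeks (SD, n = 5 each). The other 36 took 12.4% ± 2.29, 11.3% ± 1.61, 14.2% ± 2.88 and 11.5% ± 3.55. Without the 6 libraries, which leaves 3, 4, 4 and 3 at 5, 7, 10 and 14 weeks and was chosen after seeing the data, the first 10 took 23.7% ± 1.03, 23.0% ± 2.54, 19.47% ± 3.98 and 18.49% ± 2.92 (SD). The other 36 then took 11.2% ± 2.09, 11.5% ± 1.74, 15.3% ± 1.44 and 13.9% ± 1.62.

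Nfu_g_1_002091 was first by mean, with 37126 CPM, and had the highest count in 11 of 20 libraries. Nfu_g_1_023149 was highest in 4 libraries, Nfu_g_1_018490 and Nfu_g_1_001437 in 2 each and Nfu_g_1_019825 in 1, so 5 IDs shared first place. Their mean levels were 26206 CPM for Nfu_g_1_023149, 25930.5 for Nfu_g_1_018490, 24743 for Nfu_g_1_001437 and 15552 for Nfu_g_1_019825. Places 5 and 7 to 10 went to Nfu_g_1_013298 with 18221 CPM, Nfu_g_1_007569 with 14237, Nfu_g_1_022849 with 13668, Nfu_g_1_003723 with 10315 and Nfu_g_1_014209 with 9855. Only 2 of the 46 were among the 10 highest IDs in every library, 19 were among the 46 highest and 35 among the 100 highest. The lowest place of any member in a library was 199, that of Nfu_g_1_006862.

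By age means, Nfu_g_1_023149 stood at place 1, 2, 11 and 3 of all IDs at 5, 7, 10 and 14 weeks. Nfu_g_1_018490 stood at 2, 1, 9 and 4, and Nfu_g_1_013298 at 5, 4, 19 and 6. Nfu_g_1_002091 took place 3 at 5 and at 7 weeks and place 1 at 10 and at 14 weeks. Without the 6 libraries the places of Nfu_g_1_023149 and Nfu_g_1_018490 were the same, those of Nfu_g_1_013298 were 3, 4, 18 and 8 and those of Nfu_g_1_002091 were 5, 3, 1 and 1. The same 10 of the 46 led at 7 and at 5 weeks with all libraries, whereas 8 of the 10 were shared between 10 and 7 weeks. Spearman's rho between the age means of the 46 IDs, given as a description, was 0.934 for 7 and 5 weeks and 0.826 for 10 and 7 weeks. It was 0.878 for 14 and 10 weeks and 0.896 for 14 and 5 weeks.

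**Figure D2:**
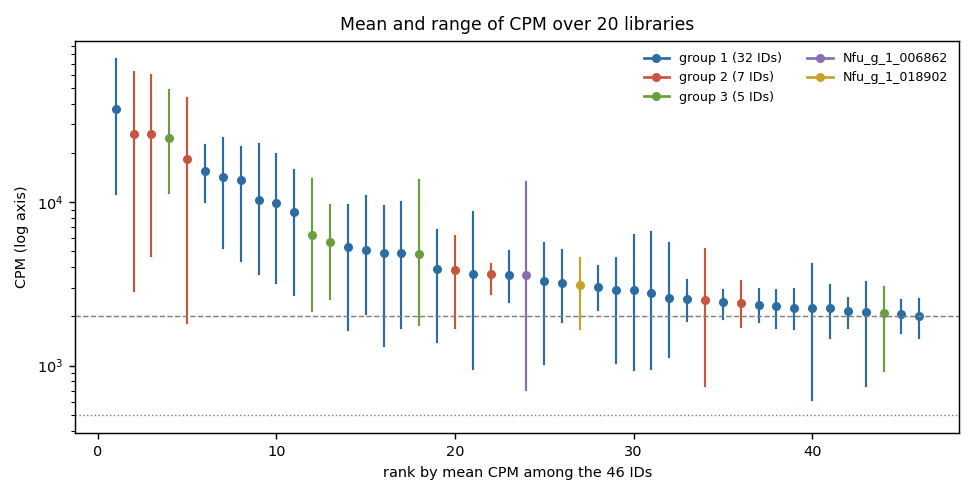
Mean CPM (points, log axis) and the range from the lowest to the highest of 20 libraries (lines) for the 46 IDs in order of mean CPM, coloured by co-variation group. The dashed line marks 2000 CPM and the dotted line 500 CPM. The ranges are widest for Nfu_g_1_013298 and Nfu_g_1_023149, whose highest library was 23.7 and 21.95 times the lowest.

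A share of counts grows with a transcript's length, so the order changed when counts were taken per length. Lengths implied by the deposited RPKM values ran from 330 to 88546 bases among the 46 IDs, with a median of 2406 against 2639 for all 17393 IDs with a recovered length. Of the 10 IDs highest by counts, 5 were also among the 10 highest per length. In RPKM recomputed with each library's own depth, the highest mean level was that of Nfu_g_1_019445, at 25567 for a length of 342 bases. Nfu_g_1_002091 followed at 20478 with 1813 bases, and Nfu_g_1_023319 at 10949.8 with 330 bases. The IDs in places 2, 3 and 5 by counts had 6785, 9459 and 9137 bases and fell to places 11, 17 and 26 of the 46 on the per-length scale.

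At the other end, Nfu_g_1_019261 and Nfu_g_1_019276 had implied lengths of 88546 and 67190 bases. Their levels were 44.3 and 49.3 RPKM, places 1093 and 983 of all IDs with a length. Their places by counts went with low levels per length. Among all such IDs, 24 of the 46 were in the 46 highest per length, 34 in the 100 highest and 45 in the 1000 highest. Of the 46, 9 were shorter than 1000 bases (19.6%), against 16.8% of all IDs with a length.

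The threshold cut through a continuous range. Just above it stood Nfu_g_1_019744 with a mean of 2021 CPM and Nfu_g_1_000119 with 2074 CPM. Just below stood Nfu_g_1_015969 with 1995 CPM and Nfu_g_1_010817 with 1993 CPM. Nfu_g_1_019744 had 1550.5, 1468, 2079.6, 2339 and 2009 CPM at 5 weeks, 2216, 2059.7, 1638, 1665 and 1914 at 7 weeks, 2512, 2557, 2180.2, 1704 and 2296 at 10 weeks and 2173, 2542, 1704, 1892 and 1923 at 14 weeks. Nfu_g_1_000119 had 1592, 1614, 2113, 2119 and 2232 CPM at 5 weeks, 2238, 1965, 1834, 1666 and 2188 at 7 weeks, 2168, 2506, 2421, 2026 and 2218 at 10 weeks and 2369, 2447, 1788, 1833 and 2152 at 14 weeks. Both overlapped between all ages, with fitted changes of 0.38 and 0.32 on the log2 scale at 10 against 7 weeks (adjusted p = 0.371 and 0.397, edgeR). Nfu_g_1_015969 had 1786, 1951, 2457, 1909 and 3143 CPM at 5 weeks, 1944, 1169, 819, 1678 and 1295 at 7 weeks, 2285, 2713, 2852, 1251 and 2926 at 10 weeks and 2567, 2452, 794, 974 and 2925 at 14 weeks. Nfu_g_1_010817 had 1226, 1775, 2124, 2652 and 1601 CPM at 5 weeks, 2162, 1773, 1701, 1271 and 2147 at 7 weeks, 2533, 3469, 1717, 1407 and 1645 at 10 weeks and 2027, 4019, 2180, 838 and 1586 at 14 weeks. The 4 IDs on either side of the threshold thus covered overlapping levels.

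A mean over 2000 CPM but fewer than 500 CPM in some library kept 2 IDs out. Nfu_g_1_022498 averaged 4500.0 CPM and fell under 500 in 2 libraries, namely replicates 3 and 4 of 10 weeks at 243 and 121 CPM. Its libraries held 9820.3, 17193, 8196, 1069.7 and 5847 CPM at 5 weeks, 4752, 8772, 4019.8, 8988 and 2195 at 7 weeks, 939.8, 1519, 243, 121 and 1096 at 10 weeks and 1051, 7627, 2273, 1675 and 2599 at 14 weeks. Nfu_g_1_019706 averaged 3019.7 CPM and missed only in 5 weeks replicate 2, at 481 CPM. Nfu_g_1_019706 had 4401, 481, 2454, 5823 and 1359.8 CPM at 5 weeks, 2589, 3243, 3897, 821 and 3055 at 7 weeks, 7559, 4391, 1379, 3186 and 6202 at 10 weeks and 3684, 503, 1660.1, 1320.4 and 2385 at 14 weeks. The minimum thus removed an ID with low counts at 10 weeks, which limits what counts of falling members can show. All 46 members passed the filter on low counts.

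Across libraries the members fell into few groups. Average linkage on 1 minus Pearson's r of TMM-scaled log2 CPM, with a height of 0.5, gave groups of 32, 7 and 5 IDs and a pair of single IDs. The median r within these groups was 0.844, 0.854 and 0.756, which the grouping itself favours. Between groups 1 and 2 it was 0.267, between 1 and 3 0.467 and between 2 and 3 0.239. These values are over 20 libraries that share a scaling, and counts taken by one ID are not left for another, so they are descriptions. On library totals r can differ. For Nfu_g_1_023149 with Nfu_g_1_019825 it was −0.74 there, against −0.34 with TMM factors. For Nfu_g_1_023149 with Nfu_g_1_013298 it was 0.998 on both. The groups were not formed again on library totals. With TMM factors, the median r over all 1035 pairs was 0.652, against 0.680 for the 168 next most abundant IDs. The latter are defined as those with a mean of at least 500 CPM and a minimum in the same proportion to it as in the rule. The members were thus no more alike, by this median, than the IDs that follow them.

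**Figure D3:**
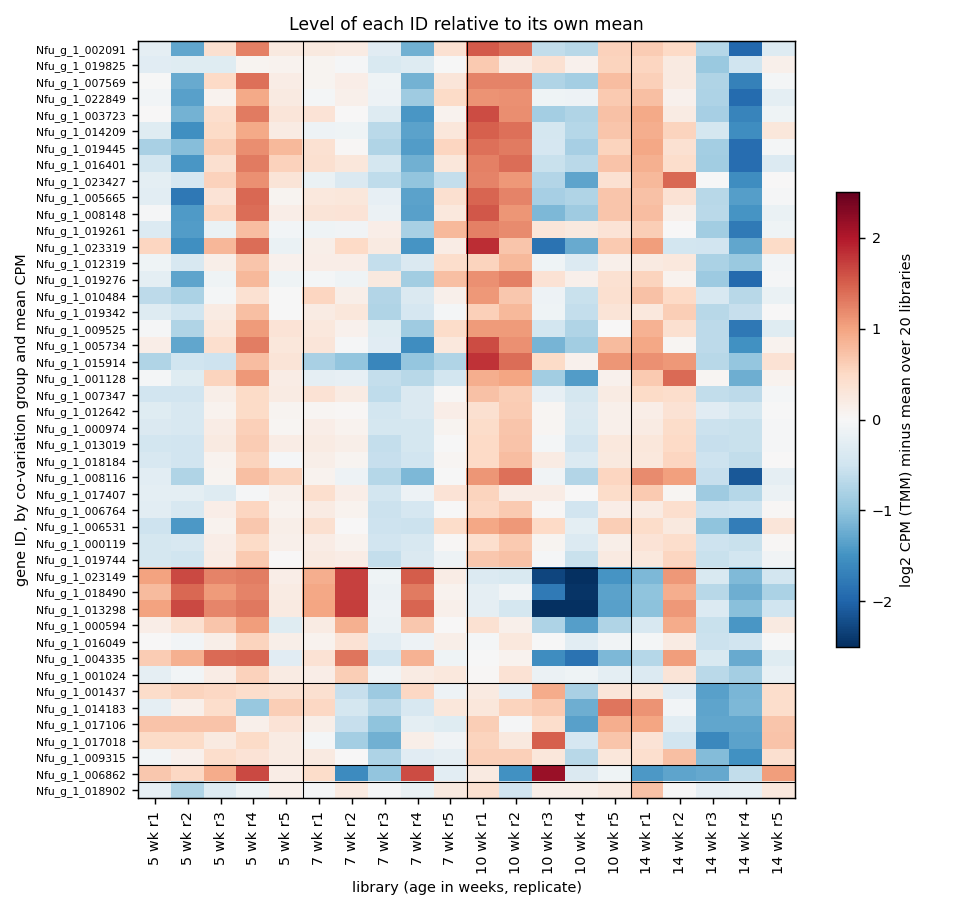
Log2 CPM (TMM-scaled) of each of the 46 IDs minus its mean over 20 libraries, with libraries in columns by age and replicate and IDs in rows by co-variation group and mean CPM. Colours stop at 2.5 log2 units in either direction. Groups 1, 2 and 3 of 32, 7 and 5 IDs are separated by horizontal lines, and the first 3 IDs of group 2 are lowest in 10 weeks replicates 3 and 4.

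Between 10 and 7 weeks, 4 of the 46 IDs passed edgeR's quasi-likelihood test at an adjusted p under 0.05, 3 lower and 1 higher at 10 weeks. That is 8.70% of the members, while 23.1% of the 19192 tested IDs were called in this comparison. The share among the 168 next most abundant IDs was 3.57%. Without overlap of libraries, 5 members were lower and 1 was higher at 10 weeks, where 11.7% and 6.50% of all tested IDs were. Overlap is judged in CPM on library totals. In TMM-scaled CPM, an alternative chosen after seeing the data, 2 members were lower (Nfu_g_1_023149 and Nfu_g_1_013298) and 2 higher (Nfu_g_1_015914 and Nfu_g_1_019825) without overlap, while Nfu_g_1_018490 overlapped. On that scale 12.1% of all tested IDs were lower and 9.25% higher without overlap. Lower test calls were 12.6% and higher calls 10.5% of all tested IDs. The 3 called lower held places 2, 3 and 5 by mean CPM and belonged to the same co-variation group. That group was formed on these same libraries, so the 3 calls are no independent evidence for one another.

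Nfu_g_1_023149 had 40701, 62798, 41458, 34754 and 21600.1 CPM at 5 weeks, 34696, 57034, 22399.7, 59026 and 22854 at 7 weeks, 12063, 11501, 4376, 2861 and 6819.6 at 10 weeks and 8063, 36217, 18679.5, 11843 and 14386 at 14 weeks. Every 10 weeks library lay below every library of 7 and of 5 weeks. The level was 7524 ± 4140.2 CPM at 10 weeks against 39202 ± 17894 CPM at 7 weeks (SD, n = 5 each), a fitted log2 change of −2.17 with an SE of 0.57 (adjusted p = 0.0106, edgeR). At 14 weeks the libraries overlapped those of 10, of 7 and of 5 weeks, with replicate 2 the highest, and the mean was 17838 ± 10976 CPM against 40262 ± 14901 CPM at 5 weeks (SD, n = 5 each). That difference did not pass the threshold, at a fitted log2 change of −1.27 with an SE of 0.56 (adjusted p = 0.172, edgeR).

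Nfu_g_1_018490 had 36697, 56981, 38614, 35732 and 23518 CPM at 5 weeks, 38000.4, 60183, 22789.8, 53741 and 22511 at 7 weeks, 13789.8, 14724, 6710.3, 4652 and 7883 at 10 weeks and 9182, 33703, 15814, 11397 and 11987 at 14 weeks. Its level was 9552 ± 4460.4 CPM at 10 weeks against 39445 ± 17326 CPM at 7 weeks (SD, n = 5 each), a fitted log2 change of −1.85 with an SE of 0.53 (adjusted p = 0.0162, edgeR). In CPM on library totals the 10 weeks libraries again lay below all of 7 and of 5 weeks. This call was lost without 7 weeks replicate 2 (adjusted p = 0.0520, edgeR) and without 10 weeks replicate 3 (adjusted p = 0.0541, edgeR).

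Nfu_g_1_013298 had 28269.6, 43399, 28517, 24854 and 15655 CPM at 5 weeks, 25148, 39855, 15222, 39674 and 15174 at 7 weeks, 9078, 7649, 2503, 1832 and 5139 at 10 weeks and 5938, 25070.4, 13223, 8518 and 9708 at 14 weeks. It stood at 5240.0 ± 3148 CPM at 10 weeks against 27015 ± 12328 CPM at 7 weeks (SD, n = 5 each), a fitted log2 change of −2.14 with an SE of 0.58 (adjusted p = 0.0123, edgeR). Its libraries followed those of Nfu_g_1_023149 closely, with r = 0.998 over 20 libraries. The count of Nfu_g_1_023149 divided by that of Nfu_g_1_013298 stayed between 1.33 and 1.75 while each level varied by 21.95 and 23.7 times.

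The ratio of Nfu_g_1_018490 to Nfu_g_1_023149, which no scaling of libraries can alter, was less constant. It was 0.971 ± 0.083, 1.01 ± 0.0705, 1.35 ± 0.221 and 0.942 ± 0.123 at 5, 7, 10 and 14 weeks (SD, n = 5 each). All 5 libraries of 10 weeks, at 1.143 to 1.63, were above all 15 others, the nearest of which was 1.139 at 14 weeks. This ratio was chosen after the values were seen and was not tested.

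The other IDs of the same group were Nfu_g_1_000594, Nfu_g_1_016049, Nfu_g_1_004335 and Nfu_g_1_001024. All 7 had fitted changes below 0 at 10 against 7 weeks, from −2.17 to −0.07 on the log2 scale. Nfu_g_1_004335 ranged over 746 to 1752 CPM at 10 weeks against 1916 to 4864 CPM at 7 weeks without overlap, a fitted log2 change of −1.21 with an SE of 0.49 (adjusted p = 0.0827, edgeR). Nfu_g_1_000594 ranged over 1710.3 to 3660.2 CPM at 10 weeks against 3763 to 6169 CPM at 7 weeks, also without overlap, a fitted log2 change of −0.72 with an SE of 0.41 (adjusted p = 0.219, edgeR). Neither passed the threshold, and in TMM-scaled CPM the libraries of both overlapped between these ages. With library totals in place of TMM factors both were called, for 6 members in all, 1 higher and 5 lower, where 17.9% of all tested IDs were called.

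Summed over its 7 IDs, this group took 11.9, 17.8, 12.5, 11.2 and 7.22% of counts at 5 weeks, 11.1, 17.5, 7.28, 16.9 and 7.35% at 7 weeks, 4.49, 4.43, 2.31, 1.83 and 2.81% at 10 weeks and 3.17, 11.1, 5.78, 3.97 and 4.79% at 14 weeks. The highest 10 weeks library, at 4.49%, lay below the lowest of 7 weeks, at 7.28%, and the lowest of 5 weeks, at 7.22%. Without the 6 libraries the means were 14.1% ± 3.24, 13.2% ± 4.88, 3.51% ± 1.12 and 6.36% ± 4.19 at 5, 7, 10 and 14 weeks (SD). The 14 weeks libraries spanned 3.17% to 11.1% and overlapped all other ages. The group was formed on these libraries, so this sum is a description.

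Nfu_g_1_015914, of group 1, was the 1 member that was called higher at 10 than at 7 weeks. It had 1478, 1738, 1502, 3001 and 2969 CPM at 5 weeks, 1290.3, 1081, 954, 1310.0 and 1462 at 7 weeks, 6570.2, 4832, 3676, 3182 and 4998 at 10 weeks and 4761, 4412, 1831, 1581 and 3107 at 14 weeks. Each 10 weeks library was above each 7 weeks library, with 4652 ± 1318 CPM at 10 weeks against 1219 ± 201 CPM at 7 weeks (SD, n = 5 each), a fitted log2 change of 2.10 with an SE of 0.44 (adjusted p = 0.0027, edgeR). It also had the lowest range at 7 weeks, at 954 to 1462 CPM, which lay just below the 1478 to 3001 CPM of 5 weeks. The change at 7 against 5 weeks did not pass the threshold, at a fitted log2 change of −0.98 with an SE of 0.43 (adjusted p = 0.241, edgeR). At 14 weeks it overlapped 10 and 5 weeks, and all 5 libraries were above those of 7 weeks.

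The same 4 IDs were the members called over all 4 ages by the F-test, again 8.70%, against 26.1% of all tested IDs. Their adjusted p was 0.013 for Nfu_g_1_015914, 0.0213 for Nfu_g_1_023149, 0.0235 for Nfu_g_1_013298 and 0.025 for Nfu_g_1_018490 in edgeR. Without 10 weeks replicate 3 only Nfu_g_1_015914 was left, and without 10 weeks replicate 5 only Nfu_g_1_015914 and Nfu_g_1_023149. The share of all tested IDs called was then 17.3% and 18.1% in the same order.

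**Figure D4:**
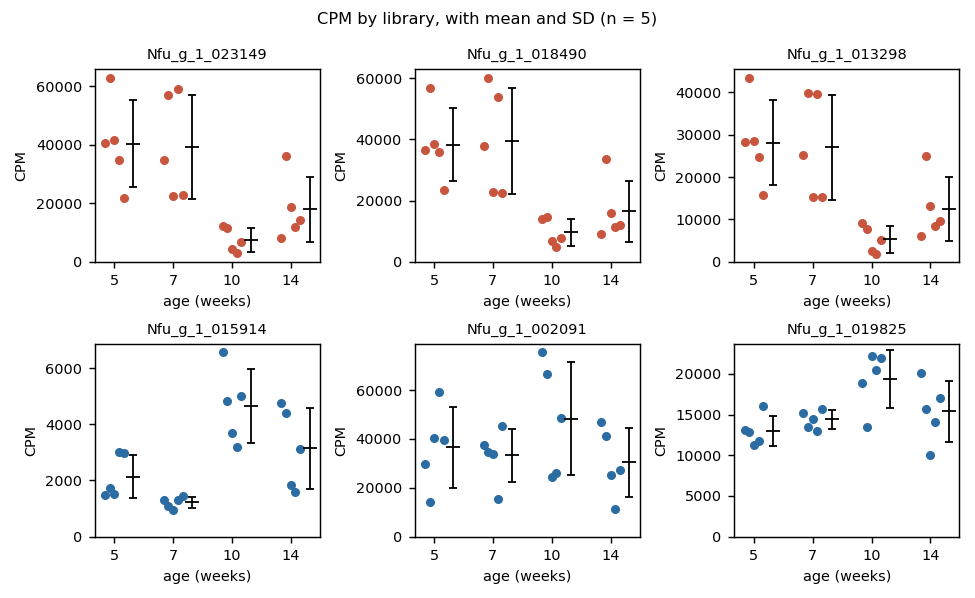
CPM in each library (points) with the mean and SD of 5 libraries (bars to the right) by age in weeks, for the 4 IDs called between 10 and 7 weeks, then Nfu_g_1_002091 and Nfu_g_1_019825, on linear axes from 0. In these CPM on library totals the 3 falling IDs lie lower at 10 weeks than at 7 or 5 weeks without overlap (in TMM-scaled CPM Nfu_g_1_018490 overlaps), and Nfu_g_1_015914 lies higher at 10 than at 7 weeks without overlap.

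Group 1 held 32 IDs, among them the most abundant one, and took 15.4, 9.2, 19.1, 25.6 and 20.0% of counts at 5 weeks, 18.3, 16.5, 16.7, 9.87 and 21.4% at 7 weeks, 31.9, 28.3, 15.7, 15.2 and 24.7% at 10 weeks and 25.1, 20.2, 13.4, 8.93 and 16.8% at 14 weeks. Its means of 17.9% ± 6.07, 16.5% ± 4.22, 23.2% ± 7.49 and 16.9% ± 6.21 (SD, n = 5 each) went with ranges that overlapped between all ages. Without the 6 libraries they were 14.6% ± 5.01, 16.5% ± 4.87, 25.1% ± 6.97 and 20.7% ± 4.2. In 30 of the 32 the highest age mean was that of 10 weeks, a pattern shared by 33 of all 46, and without the 6 libraries in 29 of the 32 and 32 of the 46. All 32 had a fitted change above 0 at 10 against 7 weeks, with a median of 0.63 on the log2 scale, but 1 passed the test. A change above 0 at this step was fitted for 39 of all 46 and 147 of the 168 next most abundant IDs. Over all tested IDs it was 9515 of 19192. The rise was thus shared with the 168 next most abundant IDs. How many of those IDs, or of all tested IDs, had their highest age mean at 10 weeks was not counted. The highest ages of the members are read from the CPM that the rule used. A high level at 10 weeks helps an ID to reach the rule's mean, so these counts are a description. IDs of one group move together and are no independent evidence for one another.

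Nfu_g_1_002091 had 29753, 14052, 40283, 59096 and 39537 CPM at 5 weeks, 37659, 34437, 33828, 15530.4 and 45124 at 7 weeks, 75531, 66639.9, 24495, 25919 and 48654 at 10 weeks and 47038, 41081, 25288, 11173 and 27398 at 14 weeks. The highest values were those of 10 weeks replicates 1 and 2 and the lowest that of 14 weeks replicate 4, and all ages overlapped. Its means were 36544 ± 16458, 33316 ± 10910.3, 48248 ± 23160.3 and 30396 ± 14104 CPM at 5, 7, 10 and 14 weeks (SD, n = 5 each), and 10 against 7 weeks gave a fitted log2 change of 0.76 with an SE of 0.56 (adjusted p = 0.352, edgeR).

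Nfu_g_1_019825 varied less, with 13067, 12846, 11306, 11759.9 and 16089 CPM at 5 weeks, 15234, 13518, 14500.1, 13031 and 15684 at 7 weeks, 18827, 13412, 22218, 20506 and 21978 at 10 weeks and 20165, 15695, 10022, 14119 and 17053 at 14 weeks. Its means were 13013 ± 1869, 14394 ± 1119, 19388 ± 3606 and 15411 ± 3744 CPM at 5, 7, 10 and 14 weeks (SD, n = 5 each). At 10 weeks, 4 of 5 libraries were above all of 7 weeks, and replicate 2 was not. The step gave a fitted log2 change of 0.52 with an SE of 0.26 (adjusted p = 0.166, edgeR).

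The remaining IDs of this group among the first 10 followed the same libraries. Nfu_g_1_007569 had 13384, 5602, 16643, 24782 and 14806 CPM at 5 weeks, 12971, 13166, 14832, 6149.9 and 16676 at 7 weeks, 24132, 23566, 8567, 8994 and 21568 at 10 weeks and 17898, 13342, 9619, 5242 and 12795 at 14 weeks. The count of Nfu_g_1_002091 was 2.13 to 3.13 times that of Nfu_g_1_007569 in every library. Nfu_g_1_022849 had 12593, 5107, 12304, 18106 and 14675 CPM at 5 weeks, 11638, 12498, 14303, 7362 and 18431 at 7 weeks, 21677, 21697, 13145, 14521 and 19502 at 10 weeks and 19264, 12033, 9235, 4357 and 10916 at 14 weeks. Nfu_g_1_003723 had 9688, 4235, 11302, 16729 and 11320.3 CPM at 5 weeks, 11080.5, 8364, 9144, 3612 and 10259 at 7 weeks, 22559, 15939, 5745, 6815 and 14940.4 at 10 weeks and 16182, 9327, 6459, 3845 and 8755 at 14 weeks. For all of these, replicate 4 of 14 weeks was the lowest library of its age, and the ages overlapped. Nfu_g_1_014209 had 7528, 3197, 11258, 12746 and 10144 CPM at 5 weeks, 7730.1, 7391, 6888, 3767 and 11289.7 at 7 weeks, 19756, 17718, 7323, 6755 and 13919.5 at 10 weeks and 15114, 11406, 8188, 3931 and 11053 at 14 weeks. The fitted change at 10 against 7 weeks was 0.66 for Nfu_g_1_007569 and 0.67 for Nfu_g_1_022849 on the log2 scale (adjusted p = 0.384 and 0.315, edgeR). It was 0.86 for Nfu_g_1_003723 and 1.04 for Nfu_g_1_014209 (adjusted p = 0.283 and 0.168, edgeR).

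Other IDs of group 1 paired off closely. Nfu_g_1_019261 and Nfu_g_1_019276, the IDs of greatest implied length, had r = 0.995 over 20 libraries and a count ratio of 1.11 to 1.35. At 14 against 10 weeks they had the lowest unadjusted p of all members, with log2 fold changes of −0.95 and −0.95 (adjusted p = 0.247 and 0.254, edgeR), and were not called. Nfu_g_1_003723 and Nfu_g_1_005734 had r = 0.990 and a count ratio of 3.13 to 4.49. With strand and handling of shared reads not given, reads shared between near-identical or overlapping genes cannot be told apart in such pairs.

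Group 3 held 5 IDs, Nfu_g_1_001437, Nfu_g_1_014183, Nfu_g_1_017106, Nfu_g_1_017018 and Nfu_g_1_009315. Nfu_g_1_001437, in place 4 by counts, had 33102, 35124, 30148, 23029.8 and 30054 CPM at 5 weeks, 28908, 13946, 15205, 35331 and 21865 at 7 weeks, 21208, 15347, 48645, 16307 and 27800.5 at 10 weeks and 25308, 16592, 11303, 13667 and 31975 at 14 weeks. Its means were 30292 ± 4584, 23051 ± 9096, 25862 ± 13659.8 and 19769 ± 8641 CPM at 5, 7, 10 and 14 weeks (SD, n = 5 each), and the ages overlapped. The 5 IDs together took 5.09% ± 0.892, 3.82% ± 1.22, 4.86% ± 2.29 and 3.7% ± 1.77 of counts at 5, 7, 10 and 14 weeks (SD, n = 5 each). Without the 6 libraries these means were 5.54% ± 0.342, 4.11% ± 1.2, 5.38% ± 2.27 and 4.75% ± 1.47. Their highest sum was 8.27% in 10 weeks replicate 3 and their lowest 1.97% in 14 weeks replicate 3. None was called between any pair of ages tested. Without the 4 libraries farthest out on the first component, Nfu_g_1_017018 was called higher at 10 than at 7 weeks, for 5 members in all, where 28.6% of all tested IDs were called. With all libraries it ranged over 3918 to 13555 CPM at 10 weeks against 2158 to 5127 CPM at 7 weeks, a fitted log2 change of 0.97 with an SE of 0.42 (adjusted p = 0.108, edgeR).

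At the other steps no member passed. At 7 against 5 weeks 0 of 46 were called, against 1.38% of all tested IDs, and 1 had an unadjusted p under 0.05 in edgeR. Nfu_g_1_015914 and Nfu_g_1_001128 were lower in all 7 weeks libraries than in any of 5 weeks, 2 of 46 where 1.74% of all tested IDs did so, and 0 were higher without overlap, against 4.36%. In either direction the share of all tested IDs was 6.10%. In TMM-scaled CPM 2 were again lower without overlap, now Nfu_g_1_015914 and Nfu_g_1_017018, where 4.17% of all tested IDs were. At 14 against 10 weeks 0 were called, where 0% of all tested IDs were, and 2 had an unadjusted p under 0.05. DESeq2 also called 0 members at both steps, where it called 6% of all tested IDs at 7 against 5 weeks and 1.17% at 14 against 10 weeks. At 14 against 10 weeks 0 members were free of overlap, against 0.683% of all tested IDs. At 14 against 5 weeks 0 were called, against 0.0104% of all tested IDs, with 4 at an unadjusted p under 0.05 in edgeR and 0 calls in DESeq2, which called 11.7% of all tested IDs. Those at an unadjusted p under 0.05 were Nfu_g_1_023149, Nfu_g_1_018490, Nfu_g_1_013298 and Nfu_g_1_004335, all of group 2, with log2 fold changes of −1.32 to −1.04. Without 14 weeks replicate 2, the highest 14 weeks library for each of them, all 4 were called lower at 14 weeks, 8.70% of the members where 11% of all tested IDs were called. In this comparison 0 members were free of overlap, where 2.17% of all tested IDs were higher and 0.360% lower. Without 5 weeks replicates 4 and 5, 7.51% of all tested IDs were called at 14 against 5 weeks and still 0 members.

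The direction of the members as a whole depended, at 7 against 5 and at 14 against 5 weeks, on which libraries were used. At 14 against 5 weeks the median fitted change of the 46 was −0.24 on the log2 scale, with 10 above and 36 below 0, and that of all tested IDs was 0.07. Without the 4 libraries farthest out on the first component the members' median was 0.16, with 33 above 0. Without 5 weeks replicates 4 and 5 it was 0.13, with 30 above 0. At 7 against 5 weeks the median was −0.18 with all libraries and 0.07 without these 2 libraries of 5 weeks, with 8 and 27 IDs above 0. Without replicate 4 of 5 weeks alone it was 0.0016. The 4 libraries had the lowest summed shares of the members and replicate 4 of 5 weeks the highest. Leaving them out thus itself favours higher changes of the members against 5 weeks, so these medians are a description. At 10 against 7 weeks the median was 0.45 with all libraries, 0.51 without the 4 and 0.45 without the 2, with 39 IDs above 0 each time. With library totals alone it was 0.33, with 38 above 0. With that scaling the median of all tested IDs was 0.15 at 7 against 5 weeks, −0.10 at 10 against 7, 0.21 at 14 against 10 and 0.25 at 14 against 5 weeks. With TMM factors it was 0.01, −0.01, 0.08 and 0.07 in the same order. Relative to these, the members' medians with library totals stayed on the same side of 0 as with TMM factors: below at 7 against 5, 14 against 10 and 14 against 5 weeks and above at 10 against 7 weeks. The 168 next most abundant IDs went the same ways with TMM factors and all libraries. Their medians were −0.21, 0.39, −0.25 and −0.09 at 7 against 5, 10 against 7, 14 against 10 and 14 against 5 weeks. These directions were thus not particular to the members.

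The members differed much in how even they were. The SD of TMM-scaled log2 CPM between libraries of one age, averaged over the 4 ages, ran from 0.25 to 1.09. Its median was 0.69 for the 46, 0.46 for the 168 next most abundant IDs and 0.46 for all tested IDs. This SD was under 0.5 for 14 of 46 members (30.4%), 60.1% of the next most abundant and 56.1% of all tested IDs. In CPM on library totals, the highest library exceeded the lowest by less than 2 times for 11 members and by more than 5 times for 20.

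The most even ID was Nfu_g_1_016049, with 3775, 3549.6, 3620.4, 3902 and 3995 CPM at 5 weeks, 3620.5, 4165, 3700.5, 3516 and 4155 at 7 weeks, 2752, 3343, 4013, 3761 and 3297 at 10 weeks and 3177, 3619.8, 3110.2, 3373 and 3655 at 14 weeks. Its mean within-age SD of TMM-scaled log2 CPM was 0.25. In CPM on library totals, as listed, the libraries of all ages lay between 2752 and 4165. Nfu_g_1_018902, which joined no group, followed with an SD of 0.31. It had 2744, 1857, 2217, 2068 and 3305 CPM at 5 weeks, 2825, 3179.8, 3656, 2909 and 3761 at 7 weeks, 3132, 1668, 3758, 4203 and 3468 at 10 weeks and 4557, 2633, 3305, 3466 and 3729.6 at 14 weeks. Nfu_g_1_019825, described above, came next, also at 0.31. On library totals the highest library of Nfu_g_1_018902 was 2.73 times its lowest, while 11 members stayed under 2 times. The order of evenness thus depends on the measure.

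The least even ID was Nfu_g_1_023319, with an SD of 1.09. It had 4652, 1098, 4966, 5972 and 2732 CPM at 5 weeks, 3229, 3922, 4455, 1188 and 3646 at 7 weeks, 8672, 3864, 957, 1606 and 4748 at 10 weeks and 5785, 1963, 2765, 1643 and 4405 at 14 weeks. Nfu_g_1_006862, the other ID outside the groups, came next with 1.04 and had 4409, 3935, 4595, 6128 and 3000.1 CPM at 5 weeks, 3467, 802, 1650.3, 8774 and 2318 at 7 weeks, 2453, 713, 13228, 2582 and 2394 at 10 weeks and 892, 931, 1371, 2267 and 5587 at 14 weeks. It was high in 10 weeks replicate 3 and in 7 weeks replicate 4, its libraries overlapped between every pair of ages, and its fitted change at 10 against 7 weeks was 0.33 with all libraries and −0.55 without 10 weeks replicate 3. Nfu_g_1_019445, at 0.98, had 4658, 3835, 10909, 12837 and 13497 CPM at 5 weeks, 9567, 7127, 5680.3, 3182 and 11679 at 7 weeks, 15818, 14836, 6456, 5450.3 and 11102 at 10 weeks and 13685, 8812, 5411, 2697 and 7640.3 at 14 weeks. None of these was called between any pair of ages tested or over all 4 ages.

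Spread also differed with age. The median SD of TMM-scaled log2 CPM over the 46 IDs was 0.54, 0.50, 0.70 and 0.90 at 5, 7, 10 and 14 weeks. Over all tested IDs it was 0.39, 0.36, 0.41 and 0.60. In 26 members the SD was largest at 14 weeks, in 18 at 10 weeks, in 2 at 5 weeks and in 0 at 7 weeks. The 14 weeks share of the members was 56.5%, against 61.3% of the next most abundant and 58.7% of all tested IDs, and the 10 weeks share 39.1%, against 22.6% and 14.7%. Without the 4 libraries farthest out on the first component the members' median was 0.45 at 7 weeks (4 libraries), 0.53 at 10 weeks (4 libraries) and 0.43 at 14 weeks (3 libraries). Over all tested IDs it was 0.33, 0.33 and 0.41 at these ages, and over the 168 next most abundant IDs 0.31, 0.35 and 0.35. With all libraries the next most abundant IDs stood at 0.56 at 14 weeks. For the members and the next most abundant IDs alike, the wide spread at 14 weeks was found with replicates 3 and 4 of that age. It was not found without them. Over all tested IDs 14 weeks stayed the widest of these ages. Leaving out the libraries farthest out itself favours a smaller spread, so this is a description.

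**Figure D5:**
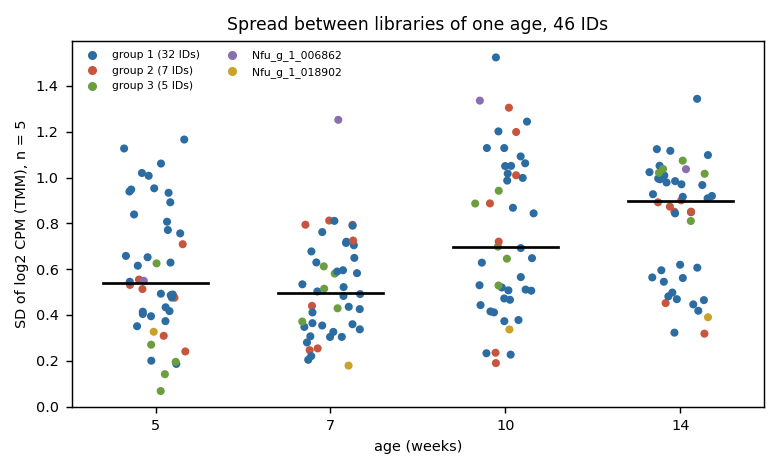
SD of log2 CPM (TMM-scaled) between the 5 libraries of an age for each of the 46 IDs (points, coloured by co-variation group), with the median as a black line, by age in weeks. The median is 0.54, 0.50, 0.70 and 0.90 at 5, 7, 10 and 14 weeks.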

How the data were processed

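RNA-seq counts of 20 skin libraries, made from total RNA with Illumina's TruSeq RNA kit v2 per the labels' protocols, were grouped by labelled age, 5 at each of 4 ages. Raw counts per gene ID were deposited by the authors in 1 table beside RPKM values. The submitters' processing notes list featureCounts 1.4.6-p4, STAR 2.4.1d and CASAVA 1.8.2. Genome build, annotation, strand setting and handling of shared reads were not stated there. The deposited RPKM values were not used as levels. From counts, lengths and 25 depths that repeat down the table, 99.846% were reproduced within 0.1%. With each library's own depth it was 4.19%. Both shares are over values with counts above 0 for the 17393 IDs with a recovered length. The lengths were fitted under the repeating depths, which favours the first share. The RPKM values served only to recover these lengths, from which levels per length were computed.

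The members and lists were chosen with earlier results of these data known. CPM used library totals, except that the principal component, co-variation and the SD of log2 CPM used TMM factors. edgeR 4.0.16 (R 4.3.3) fitted 4 group means with TMM factors (0.742 to 1.312) to the 19192 IDs kept by filterByExpr, with quasi-likelihood tests, Benjamini-Hochberg adjustment over all of them and a threshold of 0.05. The biological coefficient of variation was 52.1% and there were 16 residual degrees of freedom. Each SE of a fitted log2 change was derived from the test and is not an output of the fit. It is the size of the change divided by the square root of the quasi-likelihood F, so it is approximate. The step was tested on simulated data. In no pair of libraries of 1 age did counts agree within sampling noise (smallest chi-square per degree of freedom 70.8). Alternatives were other scalings, no filter, DESeq2 1.42.0, other thresholds of the rule and leaving out libraries. IDs were named by level, by calls, by evenness and by nearness to the threshold; pairs of IDs and Nfu_g_1_001128, Nfu_g_1_004335, Nfu_g_1_000594, Nfu_g_1_017018, Nfu_g_1_019261, Nfu_g_1_019276 and Nfu_g_1_005734 were added after their values were seen.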

Additional observations from a re-analysis of the deposited data

Results flagged for a closer look

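Among 76 sets of 5 libraries of 1 age examined for the 18 members named by rule and for the summed share, 2 held a library far from the other 4, where chance gives about 5% of sets. Nfu_g_1_006862 stood at 13228 CPM in 10 weeks replicate 3 and at 713.2 to 2582 CPM in the other 4 libraries of that age. The gap was 0.851 of the range, above the critical value of 0.71. Nfu_g_1_018490 stood at 33703 CPM in 14 weeks replicate 2 and at 9182 to 15814 CPM in the other 4 libraries of that age, a gap of 0.73 of the range.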

How the results depend on the processing

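Thresholds of 1000 CPM for the mean and 250 for the minimum gave 119 IDs, with 46.1%, 42.9%, 42.9% and 36.8% of counts at 5, 7, 10 and 14 weeks, and thresholds of 4000 and 1000 CPM gave 18 IDs, with 28.2%, 25.6%, 23.3% and 19.6% at the same ages. Per length, 5 of the first 10 stayed. Leaving out each library in turn gave 45 to 48 members. The calls then numbered 3 to 4 at 10 against 7 weeks (16.6% to 24.8% of all tested IDs), 0 to 4 at 14 against 5 weeks (0% to 11%) and 1 to 5 over all 4 ages (15.9% to 35.7%). They were 0 at 7 against 5 weeks (0.098% to 1.66%) and at 14 against 10 weeks (0% to 2.65%). The summed shares were 34.4% to 36.9%, 32.4% to 34.9%, 29.5% to 35.3% and 24.8% to 30.2% at 5, 7, 10 and 14 weeks. Among the 18 members named by rule, the only ones followed in this way, the log2 change at 10 against 7 weeks changed sign in 4 that were not called. It was −0.0090 with library totals for Nfu_g_1_018902. Leaving out each library gave −0.0196 to 0.18 for Nfu_g_1_018902 (lowest without 10 weeks replicate 1), −0.15 to 0.0420 for Nfu_g_1_016049 (0.0190 without 7 weeks replicate 2 and highest without 10 weeks replicate 4), −0.0865 to 0.85 for Nfu_g_1_023319 (lowest without 10 weeks replicate 1) and −0.55 to 1.08 for Nfu_g_1_006862 (lowest without 10 weeks replicate 3). The cause was not tested. The calls of Nfu_g_1_023149, Nfu_g_1_013298 and Nfu_g_1_015914 at 10 against 7 weeks held under all 29 alternatives run, and that of Nfu_g_1_018490 under 27. Of these alternatives 20 left out 1 library each, among them the libraries of 5 and 14 weeks. Those libraries enter this comparison only through the filter, the scaling and the estimate of spread, so leaving them out challenges the calls less. DESeq2 called 4 members at 10 against 7 weeks and 5 over all 4 ages, where it called 27.6% and 39.4% of all tested IDs. No paired analysis was possible because the labels give no replicate numbers that the ages share. The replicate numbers used here follow the order of the libraries within each age and link no libraries across ages. Each member had at least 15496 counts in every library.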
